A study of Mus musculus with 6 samples.

Results

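Neurotransmitter receptor subunits are the genes treated here, that is, the subunits of the AMPA, NMDA, kainate, metabotropic glutamate, GABA-A, GABA-B, glycine and nicotinic acetylcholine receptors. They were taken from a list of 38 symbols, drawn up with earlier results of these data known, and further subunits of the same families stand in a second list. A probeset, the small group of probes that reports one exon, was taken as a member when the array annotation gave it one of these symbols alone. This rule found 531 probesets of 33 genes, out of 16263 genes on the arrays. Grin3a, Grik3, Grm2, Grm5 and Gabbr2 were not analysed here.

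P19 cells are an established mouse line of embryonal carcinoma, malignant stem cells that form neurons and later glia when they are aggregated in the presence of retinoic acid (RA). Undifferentiated cells without RA (Day 0) were compared with the neuronal stage (Day 7) and the early glial stage (Day 10), both of which had received 1 µM RA for 4 days in aggregation culture, and all cells were grown in the same medium with serum. Total RNA was put on exon arrays, with 2 biological duplicates per day according to the submitters and 6 arrays in all. Precision is limited by the small number of arrays, and every group is the same cell line, so that no tissue or animal stands behind it. The comparisons ask which receptor subunits are present in the RNA of P19 cells before RA, at the neuronal stage and at the early glial stage.

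Fast signals between neurons are carried by receptors that are themselves ion channels and are put together from several subunits. AMPA, NMDA and kainate receptors open for glutamate and excite the cell, GABA-A and glycine receptors let chloride through, and nicotinic receptors open for acetylcholine. Metabotropic glutamate and GABA-B receptors act more slowly through G proteins, and which subunits a cell makes sets how its receptors open, what they let through and where they are anchored.

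The promoters of a few subunits called on Day 7 are shown first, chosen among those whose promoter sequence was available. Gria2 and Glrb, both of which rose by Day 7, are next to each other among the protein-coding genes of chromosome 3, and both are read from the minus strand. Chrnb2 and Chrna7 encode nicotinic subunits that moved in opposite directions. Each sequence is 250 bases before to 50 bases after a start site, written 5′ to 3′ in the direction of the gene, and was taken from RefSeq in the build GRCm38.p6. In Gria2 (chr3:80802786-80803085, minus strand) the capitals mark a match to RE1, the element bound by the repressor REST, which silences neuronal genes in other cells. In Glrb (chr3:80913611-80913910, minus strand), Chrnb2 (chr3:89764583-89764882, minus strand) and Chrna7 (chr7:63212477-63212776, minus strand) they mark GC boxes, the sites of Sp factors.
Gria2: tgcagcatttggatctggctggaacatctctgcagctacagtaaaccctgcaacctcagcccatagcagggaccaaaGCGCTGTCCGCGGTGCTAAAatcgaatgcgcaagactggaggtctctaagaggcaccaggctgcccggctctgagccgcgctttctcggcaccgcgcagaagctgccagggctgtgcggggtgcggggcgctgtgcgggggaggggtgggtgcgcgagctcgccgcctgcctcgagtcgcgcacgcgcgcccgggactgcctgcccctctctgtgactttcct
Glrb: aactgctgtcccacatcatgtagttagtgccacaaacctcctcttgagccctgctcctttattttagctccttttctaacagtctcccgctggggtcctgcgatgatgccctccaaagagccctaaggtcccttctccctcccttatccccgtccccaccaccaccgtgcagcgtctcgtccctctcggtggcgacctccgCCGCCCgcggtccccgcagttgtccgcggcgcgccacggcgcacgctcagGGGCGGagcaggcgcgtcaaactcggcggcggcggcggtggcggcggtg
Chrnb2: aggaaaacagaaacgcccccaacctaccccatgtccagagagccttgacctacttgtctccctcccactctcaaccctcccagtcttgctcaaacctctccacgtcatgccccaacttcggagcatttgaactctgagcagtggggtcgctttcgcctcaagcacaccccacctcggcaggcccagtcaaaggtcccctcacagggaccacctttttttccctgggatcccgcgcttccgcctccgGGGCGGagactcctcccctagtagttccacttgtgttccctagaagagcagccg
Chrna7: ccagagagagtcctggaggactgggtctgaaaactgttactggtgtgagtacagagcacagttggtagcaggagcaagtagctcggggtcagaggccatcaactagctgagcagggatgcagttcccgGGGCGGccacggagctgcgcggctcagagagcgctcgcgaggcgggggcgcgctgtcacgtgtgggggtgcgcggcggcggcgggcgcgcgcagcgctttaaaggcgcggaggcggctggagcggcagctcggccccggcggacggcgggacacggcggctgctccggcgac

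RE1 was searched on both strands as TTCAGCACC, NN and GGACAGCGC, where the 18 given letters were compared and the 2 between them were free. The match in Gria2 lay on the strand opposite to the gene, 173 to 154 bases before the start site (chr3:80802989-80803008). Read in the direction of the motif it was TTTAGCACCGCGGACAGCGC, which differs from the searched letters by C3T, with positions counted from 1 at the 5′ end of the motif. Of 32851 promoter windows of all genes, 6 (0.0183%) had at most 1 such difference. RefSeq windows were found for 26 of the 33 measured subunits, 33 windows in all, and every one of them outside Gria2 differed at 5 or more letters. Gria1, Grin2a, Grin2b, Glra1 and Grm4, each called in at least 1 comparison, had no window and were not searched. GC boxes (GGGCGG or CCGCCC) were absent from the Gria2 window, were in 19 of the 33 windows (57.6%) and were in 35.7% of all windows. The windows of the subunits also held more CG dinucleotides, with a median of 13 against 7 in all windows, and some belong to the same gene. The part of this in the share with GC boxes was not tested. A match is a description of the letters in a window of 300 bases, and binding was not measured.

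The level of a gene on an array was the median over its probesets of log2(intensity + 16). A level of 4 is the floor of this scale, where the intensity is 0, and changes near it are understated. A gene was called when limma, fitted to all 6 arrays and adjusted over all 16263 genes, gave an adjusted p under 0.05 and the fold was at least 2, which is a log2 change of 1. Levels are not compared between genes, since each has its own probes. Over all genes the duplicates correlated at 0.968 for Day 0, 0.982 for Day 7 and 0.956 for Day 10. A gap of over 2-fold between duplicates was seen in 1640 genes on Day 10 and 787 on Day 0, and in 0 of the receptor subunits on any day. Markers of undifferentiated embryonal carcinoma had a mean level of 9.06 and 9.21 on the Day 0 arrays and of 7.03 and 7.54 on the Day 7 arrays. Their mean was 7.43 in Day 10 replicate 1 and 9.04 in Day 10 replicate 2, so that the latter mean was close to Day 0. Single markers differed on that array. Utf1 was at 9.69, against 11.7 and 11.8 on Day 0, and Pou5f1 at 11.2, against 12.1 and 12.5. Tdgf1 was higher, at 10.4 against 9.05 and 9.08. Of the 7 markers measured, 3 were called lower from Day 0 to Day 7, and 2 had positive changes. All 9 measured neuron markers were higher on Day 7, with mean levels of 7.23 and 7.23 on Day 0, 10.2 and 10.5 on Day 7 and 9.23 and 8.74 on Day 10. Of 6 markers of smooth muscle and mesenchyme 5 were higher on Day 7 as well, with mean levels of 7.67 and 7.58 on Day 0, 10.7 and 11.3 on Day 7 and 10.2 and 10.8 on Day 10.

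From Day 0 to Day 7 many more of the 33 listed and measured receptor subunits were called higher than lower. Of all genes called, 72.1% were higher as well. With each array centred on its median this share was 48.2%, and 6 subunits were called higher and 3 lower. This list was drawn up with earlier results of these data known, so its shares do not test receptor subunits against all genes. Of 22 other subunits in the second list, most of them dim, limma called 0. Gria1, Gria2, Grin2b, Grik2, Gabra2, Gabbr1, Glra1, Glra2, Glrb and Chrnb2 were called higher, 10 of 33 (30.3%), where 7.86% of all genes were. Grin2a and Chrna7 were called lower, 2 of 33 (6.06%), where 3.04% of all genes were. In 22 subunits (66.7%) both Day 7 arrays lay above both Day 0 arrays, against 32.8% of all genes, and in 3 subunits, Chrna7, Grin2a and Grm4, both lay below, against 22.3%. The median change was 0.58 (log2) over the subunits and 0.08 over all genes. A positive change was seen in 28 of the 33 subunits (84.8%), against 57% of all genes. Bulk RNA cannot tell fewer cells of a type apart from less RNA per cell, so that a rise may be read only as more of this RNA in the whole culture. The part of the neuron and mesenchyme markers, which rose on the same arrays, in these changes was not tested.

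**Figure D1:**
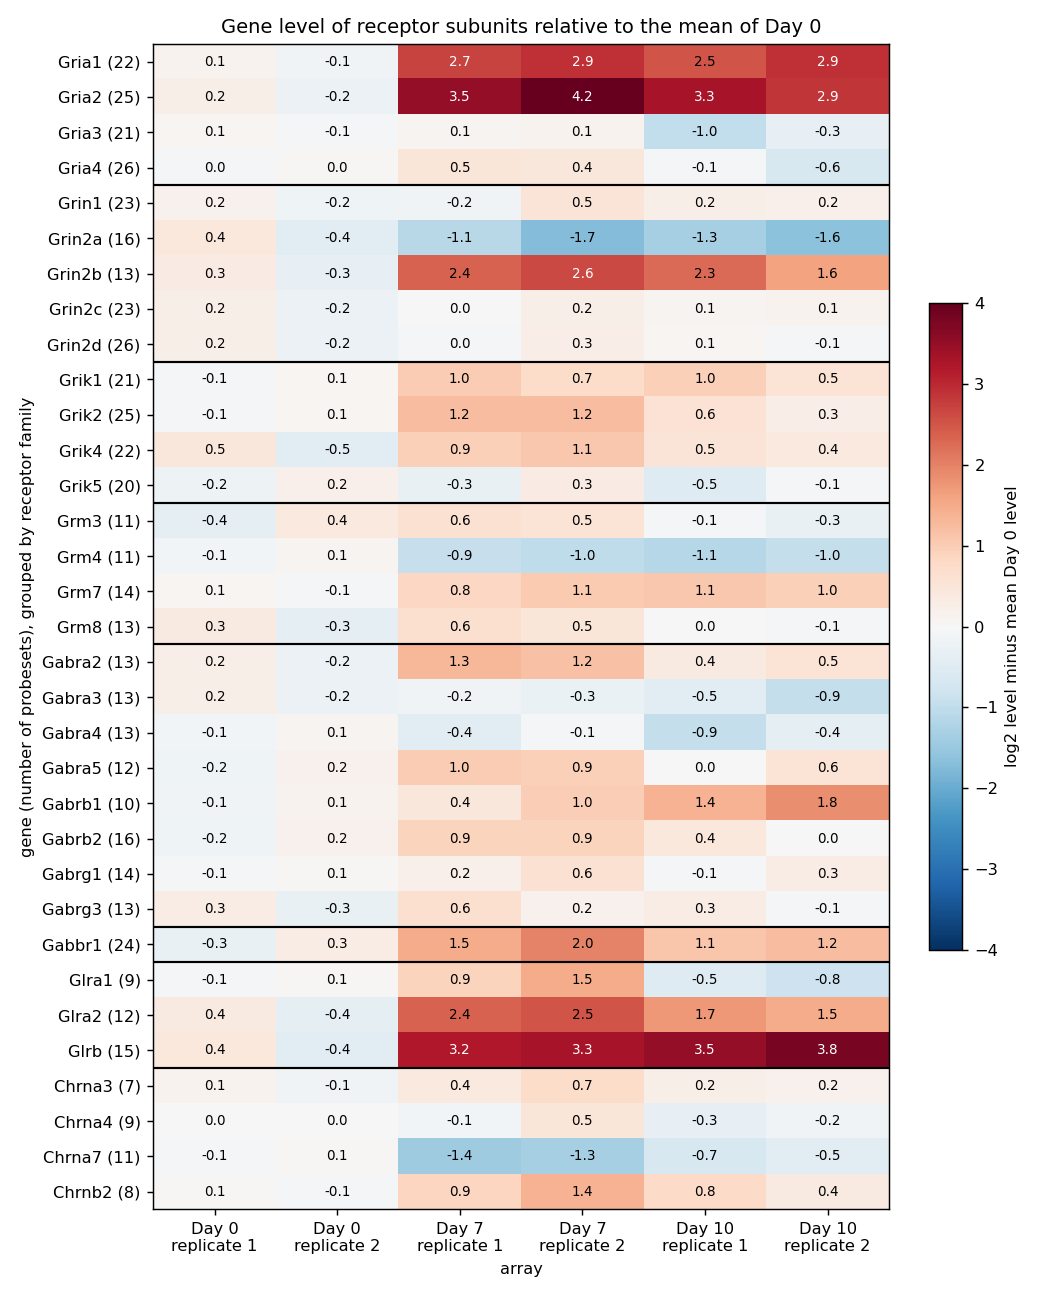
Level of 33 receptor subunit genes on each of the 6 arrays, as the log2 difference from the mean of the Day 0 arrays, with the number of probesets of each gene in brackets and lines between receptor families. Gria2 and Glrb stand out in both duplicates of Day 7 and Day 10, and Grin2a, Grm4 and Chrna7 are below Day 0 on all 4 arrays of the later days.

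Of the AMPA receptor subunits, Gria1 and Gria2 rose and stayed high, whereas Gria3 and Gria4 were already measured well above the floor on Day 0 and did not pass the test. Gria2, whose edited protein keeps calcium out of the channel, had levels of 5.00 and 4.54 on the Day 0 arrays, 8.29 and 9.0 on Day 7 and 8.07 and 7.64 on Day 10. Both Day 0 arrays were near the floor, and all 4 later arrays lay far above them. The change from Day 0 to Day 7 was 3.87 (log2, SE 0.34, adjusted p = 2.95e-05 from limma), and it lay between 2.82 and 5.02 over the alternatives. Gria1, a subunit that is driven into synapses during plasticity, had levels of 5.64 and 5.37 on Day 0, 8.20 and 8.44 on Day 7 and 8.03 and 8.43 on Day 10. Its rise from Day 0 to Day 7 was 2.81 (SE 0.29, adjusted p = 9.65e-05 from limma), and the arrays of Day 7 and Day 10 overlapped. Gria3 changed by 0.12 (adjusted p = 0.893) and Gria4 by 0.47 (adjusted p = 0.421). From Day 7 to Day 10 Gria2, Gria3 and Gria4 had changes of -0.79, -0.78 and -0.82, none of them called, while that of Gria1 was -0.09. The calls of Gria1 and Gria2 for Day 7 against Day 0 held under each of the 18 alternatives run.

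Among the NMDA receptor subunits Grin2b rose and Grin2a fell. Grin2b, the subunit typical of the embryonic brain, had levels of 5.61 and 4.94 on the Day 0 arrays, 7.63 and 7.91 on Day 7 and 7.54 and 6.87 on Day 10. Its later arrays all lay above Day 0, and it rose by 2.50 from Day 0 to Day 7 (SE 0.34, adjusted p = 0.000613 from limma). Grin2a, which in the brain becomes abundant only after birth, went the other way, with levels of 7.89 and 7.01 on Day 0, 6.33 and 5.71 on Day 7 and 6.11 and 5.81 on Day 10. It was highest in the undifferentiated cells on both duplicates, although these were the least alike for this gene, and fell by 1.43 (SE 0.36, adjusted p = 0.024 from limma). This call was lost without Day 0 replicate 1 (a change of -0.99, adjusted p = 0.21), without either Day 7 array (-1.74 and adjusted p = 0.0531 without replicate 1, -1.12 and adjusted p = 0.273 without replicate 2), and with an offset of 1 or 50. Grin1, the subunit that every NMDA receptor needs, had a level between 6.18 and 6.49 on Day 0 and between 6.18 and 6.87 on Day 7, so that the days overlapped. Its change was 0.19 (adjusted p = 0.831), and those of Grin2c and Grin2d were 0.11 each. The call of Grin2b held under all 18 alternatives.

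Kainate receptor subunits were called once. Grik2, a pore-forming subunit, had levels of 5.65 and 5.78 on Day 0, 6.94 on both Day 7 arrays and 6.31 and 5.99 on Day 10. The days did not overlap, Day 7 was the highest, and the rise to it was 1.23 (log2, SE 0.28, adjusted p = 0.015 from limma). The call was lost without any one of the Day 0 and Day 7 arrays, where the adjusted p was between 0.0535 and 0.151 and the change between 1.16 and 1.29. Grik4, a subunit that needs a partner to form a channel, had levels of 7.15 and 6.25 on Day 0 and 7.65 and 7.78 on Day 7, a change of 1.01 (adjusted p = 0.0803). The Day 0 duplicates decided its value, which was 1.46 (adjusted p = 0.0328) without Day 0 replicate 1 and 0.56 (adjusted p = 0.501) without Day 0 replicate 2. Grik1 changed by 0.87 (adjusted p = 0.0851) and Grik5, the other subunit that needs a partner, by 0.02 (adjusted p = 0.99).

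No metabotropic glutamate receptor was called from Day 0 to Day 7, but a pair of them was called between Day 0 and Day 10 in opposite directions. Grm4 and Grm7 are both found mainly on axon endings, where they dampen release. Grm4 had levels of 7.84 and 8.05 on Day 0, 7.01 and 6.92 on Day 7 and 6.82 and 6.98 on Day 10, so that all later arrays lay below Day 0. Its change to Day 7 was -0.98 (SE 0.28, adjusted p = 0.0426 from limma), just under the fold required, and it fell by 1.05 to Day 10 (adjusted p = 0.0365). Grm7 was at 6.16 and 6.01 on Day 0, 6.92 and 7.15 on Day 7 and 7.15 and 7.05 on Day 10. Here all later arrays lay above Day 0, with a change of 0.94 to Day 7 (adjusted p = 0.0506) and a rise of 1.01 to Day 10 (SE 0.28, adjusted p = 0.0424 from limma). Both calls for Day 10 were lost under 11 of 18 alternatives, among them leaving out Day 0 replicate 1 (-1.15 and 1.09), Day 0 replicate 2 (-0.94 and 0.94), Day 7 replicate 1 or Day 7 replicate 2 (-1.05 and 1.01) or Day 10 replicate 1 (-0.96 and 0.96), with adjusted p between 0.0849 and 0.21. Grm3 and Grm8 changed by 0.58 and 0.56 to Day 7, neither of them called.

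Of the 8 listed GABA-A receptor subunits, Gabra2 was called higher on Day 7 and Gabrb1 on Day 10. Gabra2, an alpha subunit of the forebrain, had levels of 5.37 and 4.91 on Day 0, 6.48 and 6.30 on Day 7 and 5.51 and 5.68 on Day 10. It peaked on Day 7 with no overlap between days, and the rise to Day 7 was 1.25 (log2, SE 0.29, adjusted p = 0.0168 from limma). This call was lost without Day 0 replicate 2 (1.02, adjusted p = 0.132) and without either Day 7 array (1.16 and adjusted p = 0.192 when replicate 1 was left out, 1.34 and adjusted p = 0.115 when replicate 2 was). Gabrb1, a beta subunit, followed another course, at 5.12 and 5.38 on Day 0, 5.70 and 6.23 on Day 7 and 6.64 and 7.10 on Day 10. Each day lay above the one before without overlap. The change was 0.71 to Day 7 (adjusted p = 0.205) and a further 0.91 to Day 10 (adjusted p = 0.233), neither called, and 1.62 between Day 0 and Day 10, where it was called (SE 0.31, adjusted p = 0.00848 from limma). Without Day 0 replicate 1 that last value was 1.49 with an adjusted p = 0.0528. Gabra5 changed by 0.98 to Day 7 (adjusted p = 0.061), Gabrb2 by 0.89 (adjusted p = 0.0831) and Gabrg1 and Gabrg3 by 0.41 and 0.40. Gabra3 and Gabra4 had changes of -0.21 and -0.24.

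The GABA-A genes lie in clusters. On chromosome 5 Gabrg1 is next to Gabra2 and Gabra4 is next to Gabrb1 among the protein-coding genes, and on chromosome 7 Gabrg3 is next to Gabra5. Gabra2 changed by 1.25 to Day 7 and Gabrg1, close to the floor with levels between 4.52 and 5.20 on the 6 arrays, by 0.41, and in both the Day 7 arrays lay above those of Day 0. Gabra4 was at 7.54 and 7.74 on Day 0 and at 6.70 and 7.26 on Day 10, while its neighbour Gabrb1 rose between those days. Gabrg3 and Gabra5 changed by 0.40 and 0.98 to Day 7 and by -0.29 and -0.70 from Day 7 to Day 10, none of them called. The differences between neighbours were not tested.

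Gabbr1, the GABA-B subunit that binds GABA, rose. Its levels were 8.13 and 8.70 on Day 0, 9.91 and 10.41 on Day 7 and 9.51 and 9.64 on Day 10. The days did not overlap, with Day 7 the highest. The change to Day 7 was 1.75 (SE 0.32, adjusted p = 0.00394 from limma), and this call was lost only without Day 7 replicate 2, where the change was 1.5 and the adjusted p = 0.0783. Against Day 0, Day 10 was higher by 1.16 (adjusted p = 0.0407 from limma). That second call did not hold when any one array was left out, with changes between 0.87 and 1.45 and adjusted p between 0.0536 and 0.219.

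All 3 listed glycine receptor subunits rose to Day 7. Glrb, the beta subunit that ties the receptor to the scaffold protein gephyrin, had levels of 5.71 and 4.85 on Day 0, 8.48 and 8.57 on Day 7 and 8.80 and 9.07 on Day 10. It rose by 3.25 to Day 7 (SE 0.33, adjusted p = 8.77e-05 from limma) and its Day 10 arrays lay above those of Day 7, with a change of 0.40 that was not called (adjusted p = 0.652). Glra2, the alpha subunit of the embryo, had levels of 5.04 and 4.33 on Day 0, 7.05 and 7.20 on Day 7 and 6.43 and 6.16 on Day 10. Its rise was 2.44 (SE 0.32, adjusted p = 0.000435 from limma), and both Day 10 arrays lay between the other days. Glra1, the alpha subunit of the adult spinal cord, had levels of 5.88 and 6.0 on Day 0, 6.84 and 7.41 on Day 7 and 5.41 and 5.10 on Day 10. Day 7 was thus the only high day and Day 10 the lowest. Its rise was 1.18 (SE 0.30, adjusted p = 0.0275 from limma), after which it fell by 1.87 (SE 0.30, adjusted p = 0.0389 from limma), the only receptor subunit called between Day 7 and Day 10. The rise was not called without Day 0 replicate 1 (1.12, adjusted p = 0.136), Day 0 replicate 2 (1.24, adjusted p = 0.0824), Day 7 replicate 1 (1.47, adjusted p = 0.0721) or Day 7 replicate 2 (0.90, adjusted p = 0.356). The fall was not called without Day 7 replicate 1 (-2.15, adjusted p = 0.211), Day 7 replicate 2 (-1.58, adjusted p = 0.526) or Day 10 replicate 1 (-2.02, adjusted p = 0.0642), and was called without Day 10 replicate 2 (-1.71, adjusted p = 0.0378). The rises of Glrb and Glra2 to Day 7 held under all 18 and 17 alternatives in which they were tested.

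Among the nicotinic subunits Chrna7 fell and Chrnb2 rose. Chrna7, which forms a calcium-permeable receptor from copies of itself, had levels of 9.02 and 9.13 on Day 0, 7.66 and 7.75 on Day 7 and 8.43 and 8.61 on Day 10. The days did not overlap, and the lowest was Day 7. It fell by 1.37 (SE 0.27, adjusted p = 0.00727 from limma), and its change from Day 7 to Day 10 was 0.81 (adjusted p = 0.225). The call was lost without either Day 7 array, with -1.33 (adjusted p = 0.106) when replicate 1 was left out and -1.41 (adjusted p = 0.0824) when replicate 2 was. Chrnb2, the beta subunit of the main nicotinic receptor of the brain, had levels of 6.23 and 6.12 on Day 0, 7.03 and 7.57 on Day 7 and 6.94 and 6.53 on Day 10. The rise was 1.13 (SE 0.31, adjusted p = 0.0349 from limma), and Day 10 lay between the other days. Without one of the Day 0 or Day 7 arrays it was not called, with changes of 1.19 and 1.08 when Day 0 replicate 1 or 2 was left out, of 1.40 and 0.86 when Day 7 replicate 1 or 2 was, and adjusted p between 0.0924 and 0.393. Chrna4, its usual partner, had levels of 9.01 and 8.96 on Day 0 and 8.87 and 9.47 on Day 7, which overlapped, and a change of 0.19 (adjusted p = 0.823). Chrna3, a subunit of autonomic ganglia, changed by 0.55 (adjusted p = 0.297).

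**Figure D2:**
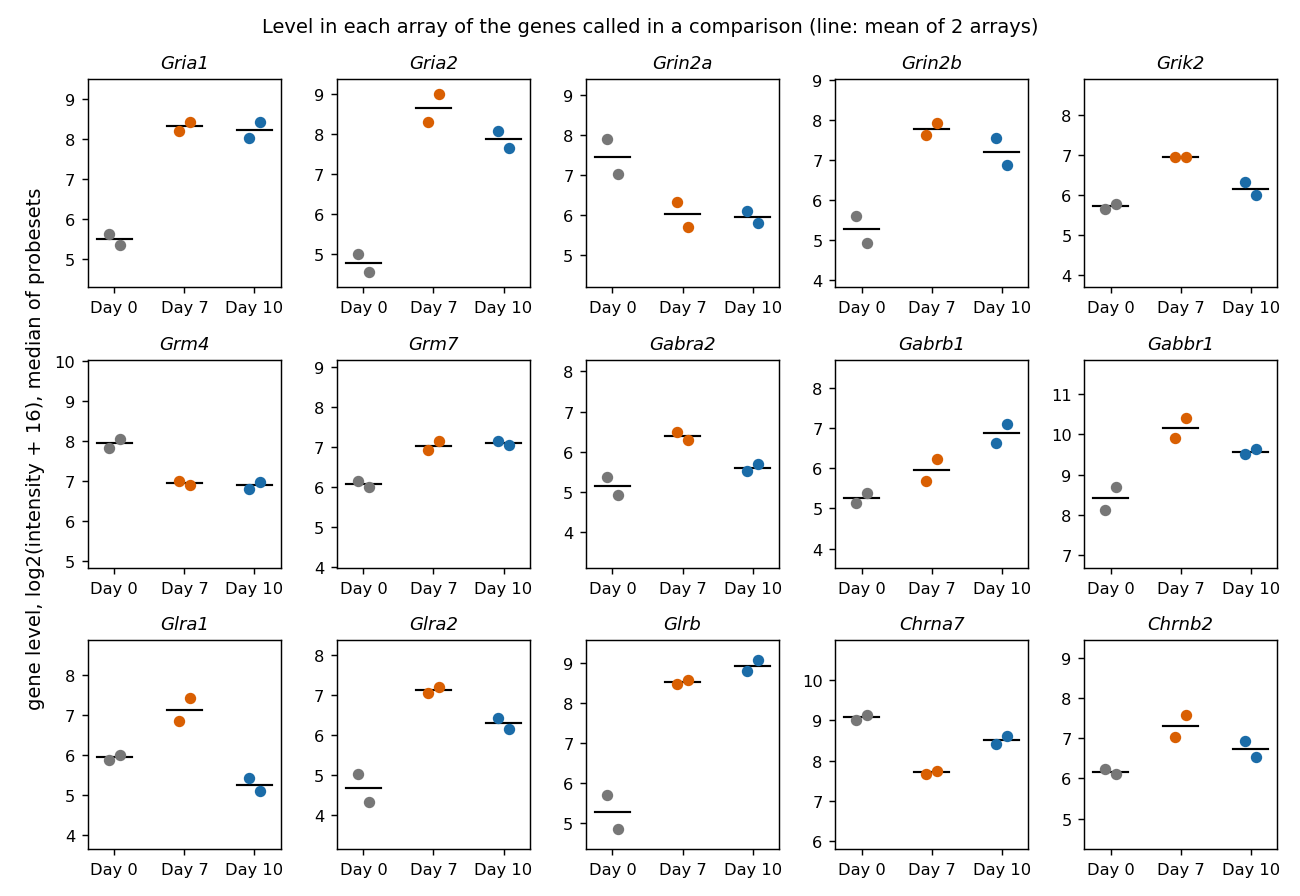
Gene level, log2(intensity + 16), on each array of the 15 receptor subunits called in at least 1 comparison, with a point per array, a line at the mean of the 2 arrays of a day and the same span on every vertical axis. The duplicates lie closer to each other than to the arrays of Day 0 for Gria1, Gria2, Grin2b, Glra2 and Glrb, and Glra1 has its only high values on Day 7.

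From Day 7 to Day 10 most receptor subunits had lower values, but only Glra1 passed the test. In 18 of the 33 (54.5%) both Day 10 arrays lay below both Day 7 arrays, where this was so for 31.5% of all genes. In Chrna7, Gabrb1 and Glrb, 3 of 33 (9.09%), both lay above, against 12.6% of all genes. limma called 1 subunit lower, Glra1, and 0 higher, where 0.0984% and 0.191% of all genes were called. At an unadjusted p under 0.05, 10 subunits (30.3%) were lower and 2 (6.06%) were higher, against 11% and 2.58% of all genes. The median change was -0.42 over the subunits and -0.15 over all genes, and 27 of the 33 changes (81.8%) were negative, against 65% of all genes. With each array centred on its median, the median change was -0.21 over the subunits and 0.06 over all genes. Of the 10 subunits that rose to Day 7, 8 had a mean on Day 10 between those of Day 0 and Day 7, Glrb was above its Day 7 mean and Glra1 was below its Day 0 mean. The neuron markers also had lower levels on Day 10, where Map2 and Syt1 were called lower among 9, and of 7 astrocyte markers 1 was called higher and 0 lower, with a median change of 0.34. The one called was Gfap, the filament of astrocytes, which went from 6.13 and 6.90 on Day 7 to 9.55 and 10.50 on Day 10, while Slc1a2 and Fabp7, called higher on Day 7 against Day 0, had changes of -0.47 and -0.27. From Day 0 to Day 7, 2 of these 7 markers were called higher and 2 lower. The part of these cells in the changes of the receptor subunits was not tested.

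Compared with undifferentiated cells, the early glial stage had higher levels of Gria1, Gria2, Grin2b, Grm7, Gabrb1, Gabbr1, Glra2 and Glrb, 8 of 33 called higher, where 5.06% of all genes were. Grin2a and Grm4 were called lower, where 4.41% of all genes were. Day 7 and Day 10 share the Day 0 arrays in these comparisons, so that they are not independent of each other. The change between Day 0 and Day 10 was 3.65 for Glrb (SE 0.33, adjusted p = 5.75e-05 from limma), 3.09 for Gria2, 2.73 for Gria1, 1.93 for Grin2b and 1.61 for Glra2. The change of Grin2a was -1.49 (SE 0.36, adjusted p = 0.0244), and it was not called without Day 0 replicate 1 (-1.05, adjusted p = 0.156), Day 10 replicate 1 (-1.64, adjusted p = 0.058) or Day 10 replicate 2 (-1.34, adjusted p = 0.0655). Glra2 was not called without Day 0 replicate 2 (1.26, adjusted p = 0.0827). When Day 10 replicate 2 was left out, the array with high carcinoma markers, 7 subunits were called higher and 1 lower, where 725 of all genes were called higher and 1955 lower. Without Day 10 replicate 1 it was 6 and 0, where 883 of all genes were called higher and 279 lower, and with all arrays 823 and 718 were. Leaving out Day 0 replicate 1 left 5 and 0, and leaving out Day 0 replicate 2 left 5 and 1. Gria1, Gria2, Grin2b and Glrb were called higher under each of the 18 alternatives.

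**Figure D3:**
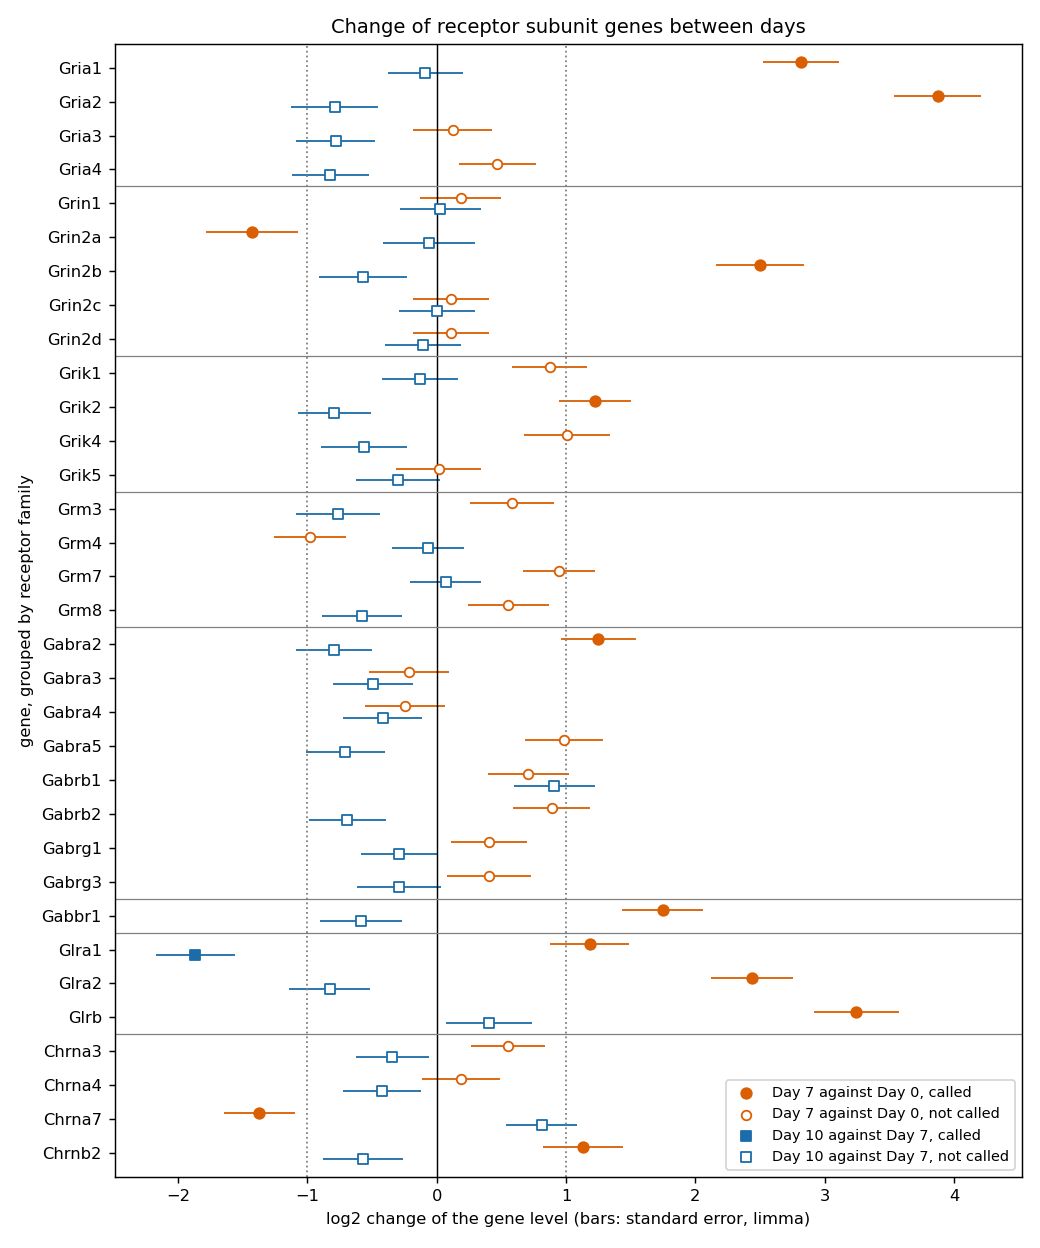
Log2 change of 33 receptor subunit genes from Day 0 to Day 7 (circles) and from Day 7 to Day 10 (squares), with standard errors from limma; filled symbols were called, and dotted lines mark a fold of 2. Filled circles lie on both sides of 0, 10 to the right and 2 to the left, and the one filled square is Glra1.

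For each subunit called on Day 7, both Day 7 arrays lay on the gene's side of both Day 0 arrays in most probesets, but fewer probesets were called. Of the 531 probesets of the receptor subunits, 89 were called higher on Day 7 and 7 lower by limma over 208093 probesets, where 3.25% and 0.929% of all probesets were. In 268 both Day 7 arrays lay above both Day 0 arrays and in 63 both lay below, against 28.6% and 23.5% of all probesets. Probesets of 1 gene report the same RNA and are not independent. All 22 probesets of Gria1 and all 13 of Grin2b lay above Day 0, as did 24 of 25 for Gria2 and 22 of 24 for Gabbr1. The shares were lower for Grik2 (20 of 25), Gabra2 (10 of 13) and Chrnb2 (6 of 8). In Grin2a 15 of 16 lay below Day 0, and in Chrna7 10 of 11 did. Most probesets were called only in Gria1 (16 of 22), Gria2 (20 of 25), Glrb (12 of 15) and Chrnb2 (5 of 8). Glra1 had 0 of 9 called, Gabra2 1 of 13, Grin2a 2 of 16, Chrna7 3 of 11 and Grik2 7 of 25. Far fewer probesets were called when a Day 0 or Day 7 array was left out, which leaves 1 array on that day. The share of all probesets called was not counted in that case, so the drop cannot be read as a trait of the receptor subunits.

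Single probesets showed how much of a change the median of a gene held. Glrb had 12 probesets called, with changes between 2.28 and 4.74, and the 3 others had changes between -0.40 and -0.14. The steepest of them had intensities of 36.3 and 1.81 on Day 0, 749 and 849 on Day 7 and 1240 and 1408 on Day 10. One of the 3 others was at 202 and 180 on Day 0 and at 150 and 195 on Day 7, so that its days overlapped. In Chrnb2 5 probesets were called, with changes between 2.08 and 3.10, while the 3 others ran from -0.60 to 1.5, and the median over its probesets was 2.15, where the change of the gene level was 1.13. Grin2a had a probeset with intensities of 1254 and 584 on Day 0, 77.6 and 45 on Day 7 and 68.0 and 63.4 on Day 10, the steepest of the gene at -3.53, and the changes of the other probesets reached from -2.82 to -0.65. In Chrna7 a single bright probeset had intensities of 5208 and 3737 on Day 0, 5392 and 4561 on Day 7 and 5753 and 5225 on Day 10, a change of 0.17, and the 10 others changed by between -1.80 and -1.11.

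**Figure D4:**
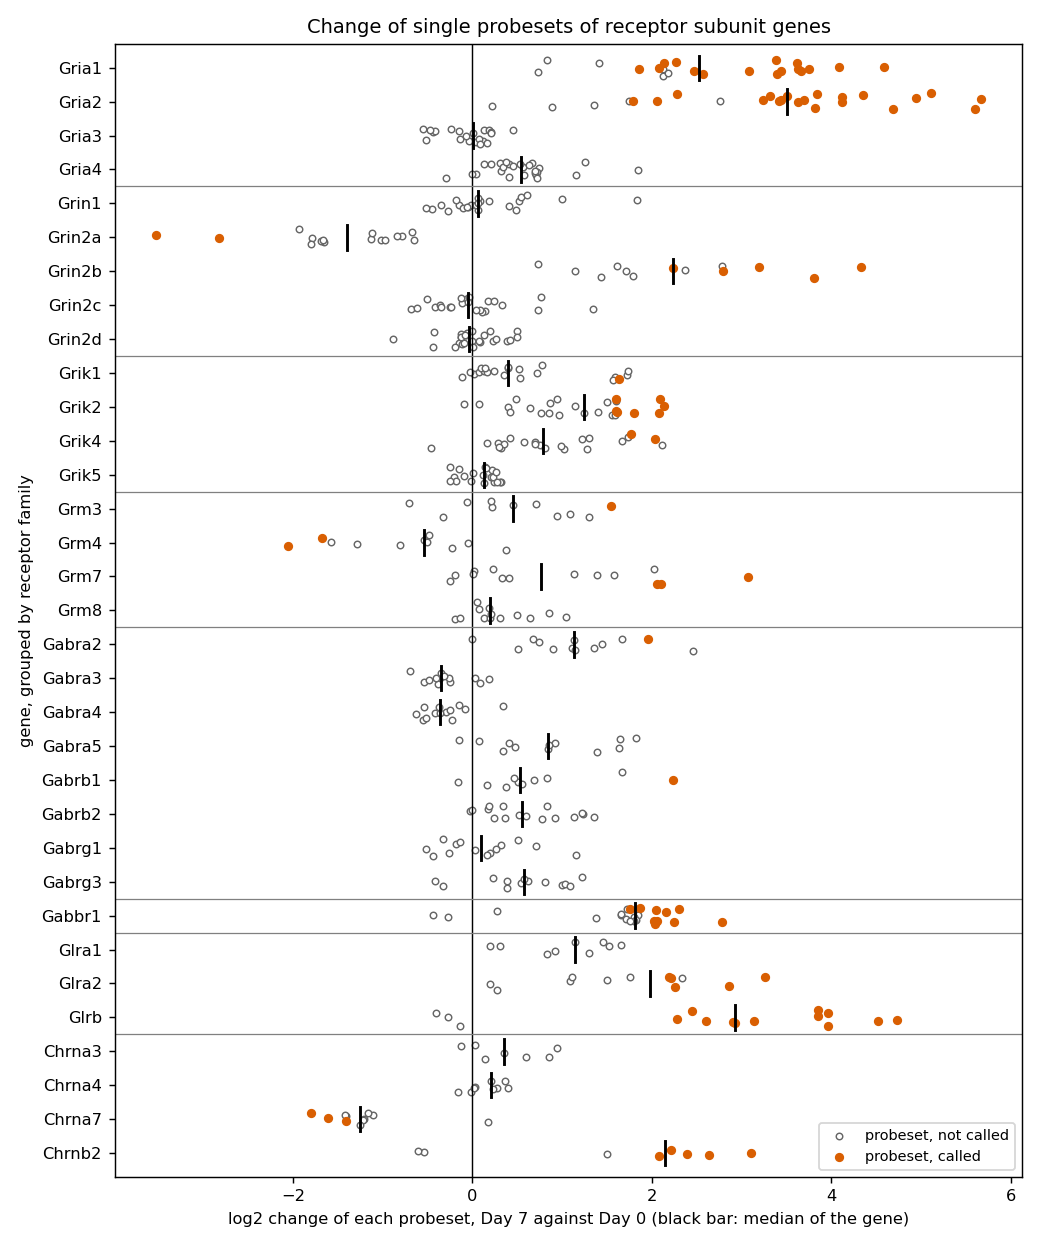
Log2 change from Day 0 to Day 7 of the 531 probesets of the receptor subunits, with a point per probeset, filled where it was called, and a bar at the median of each gene. Probesets of Gria1, Gria2 and Grin2b all lie to the right of 0, those of Grin2a all to the left, and Chrna7 has a single probeset at 0.17 away from its others.

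Exon use was compared by the splicing index (SI), which takes the log2 level of a probeset relative to that of its gene and gives the change from Day 0 to Day 7. Because the gene had to be measured on both days, 133 probesets of 8 subunits entered, among them Gabbr1, Gria3, Gria4 and Chrna7. limma called 0 of them, and 0% of all 116343 probesets tested, with a lowest adjusted p of 0.228 over all of them, and 10 of the 133 had an unadjusted p under 0.05. The threshold for the size of SI set in the study's methods was passed by 5 of the 133 (3.76%) in either direction, where 0.866% of all probesets passed it. Of these 5, 3 were in Gabbr1, with SI of -2.19, -2.02 and -1.47, 1 was the bright probeset of Chrna7, with 1.54, and 1 was in Gria4, with 1.37. The Gria4 probeset had intensities of 15.58 and 102.3 on Day 0 and 220.4 and 187.5 on Day 7. Its Day 0 duplicates were thus far apart, the first of them under the offset of 16. The Gabbr1 probeset with an SI of -2.02 had intensities of 1519 and 1179 on Day 0, 968 and 1268 on Day 7 and 1768 and 1482 on Day 10, so that its days overlapped while the gene rose. SI subtracts the change of the gene, and a probeset that does not move with its gene gets a large SI whatever it reports. Cross-hybridization of probesets was not analysed here.

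The other genes of these receptor systems were taken from lists. Of 22 other receptor subunits measured, limma called 0 in each of the 3 comparisons. They were further subunits of the same receptor families, and not only those of muscle nicotinic and retinal GABA receptors. At an unadjusted p under 0.05 there were 0 from Day 0 to Day 7 and 1 higher in each of the others. The changes of the 22 to Day 7 lay between -0.60 and 0.39 with a median of 0.02. Mean levels of 17 of the 22 were under the 30th percentile of all genes, and changes near the floor are understated. The lack of calls therefore does not show that these subunits were unchanged. Auxiliary subunits and assembly factors, which travel with the receptors, were measured for 13 genes, of which 4 were called higher on Day 7 and 0 lower, where 7.86% and 3.04% of all genes were, with a median of 0.94. Cnih2, a cornichon protein that slows the closing of AMPA receptors, was at 6.06 and 5.97 on Day 0, 8.98 and 9.15 on Day 7 and 8.19 and 8.10 on Day 10, with a rise of 3.05 to Day 7 (SE 0.27, adjusted p = 3.95e-05 from limma). Neto2, a partner of kainate receptors, rose by 2.84 (adjusted p = 0.000572), Ly6h, a brake on nicotinic receptors, by 1.90 (adjusted p = 0.00117), and Cacng4, a transmembrane partner of AMPA receptors, by 1.83 (adjusted p = 0.00194). Between Day 0 and Day 10 6 of the 13 were called higher, where 5.06% of all genes were, Kctd12 and Lynx1 in addition. Of 17 anchoring and clustering proteins 1 was called, Gabarapl1, a relative of the GABA-A receptor-associated protein, at 1.11 (adjusted p = 0.044), where 7.86% of all genes were called higher, and the median was 0.45.

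**Figure D5:**
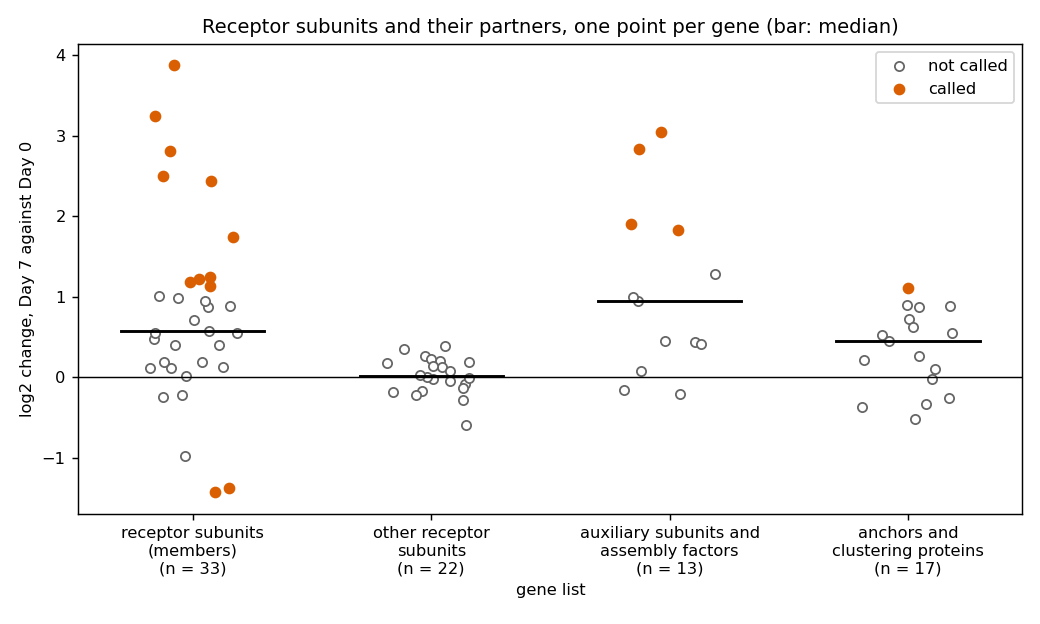
Log2 change from Day 0 to Day 7, with a point per gene, filled where it was called, and a bar at the median, for the 33 receptor subunits, 22 other receptor subunits, 13 auxiliary subunits and assembly factors and 17 anchoring proteins. The medians are 0.58, 0.02, 0.94 and 0.45 in this order, and all points of the other receptor subunits lie between -0.60 and 0.39.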

How the data were processed

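RNA of P19 cells from Day 0, Day 7 and Day 10 was measured on Mouse Exon 1.0 ST arrays, 2 per day, and samples were grouped by the day in the labels. The authors deposited linear intensities of single exons for 228090 core probesets. The methods name sketch normalization and PLIER, whereas RMA and Affymetrix Expression Console are listed in the processing notes of the submitters. No column of values was left without a sample (0 not mapped). Of the probesets, 208093 had 1 symbol in the array annotation, 4327 had several and 15670 had none, and only the first were used. Of 16285 symbols, 14111 were current in GRCm38.p6 and 2131 were updated.

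An offset of 16 was added before log2 was taken. On each array 8.9% to 11.9% of probesets were below it, and median intensities lay between 156 and 216. All 6 arrays were fitted with limma 3.58.1 (R 4.3.3), with Benjamini-Hochberg adjustment over all genes or probesets. No filter on low levels was used, since many receptor genes are dim. The SI test was limited to genes of at least 4 probesets, to genes whose level reached the 45th percentile on both days compared, and within them to probesets that reached the 25th percentile on one of these days. Scripts were tested on simulated data. Alternatives covered the summary over probesets, a filter at the 30th percentile, offsets of 1 and 50, quantile normalization, centring, the replicate number as a block, the arrays in the fit, trend and robust variance, the fold and leaving out each array, in which case the spread of the lone array was taken from the other days. All listed subunits are accounted for, those called with the value of each array, and from the other lists up to 4 called genes with the largest change to Day 7 are named. Kctd12, Lynx1, Gfap, Slc1a2, Fabp7, Map2 and Syt1 were named after their values were seen. The members and lists were chosen with earlier results of these data known.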

Additional observations from a re-analysis of the deposited data

How the results depend on the processing

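Calls rested on 2 arrays per day, dim genes are bounded by the offset, and no called change of a subunit turned its sign under an alternative, while some changes that were not called did. For Day 7 against Day 0, the 10 subunits called higher became 6 with the 30th percentile filter, 6 with an offset of 50 and 6 with centred arrays. All genes called higher went from 1278 to 1279, 1004 and 934 under these settings. With centred arrays or an offset of 50 the calls of Grik2, Gabra2, Glra1 and Chrnb2 were lost. The 2 called lower became 1 with an offset of 1 or of 50. They were 3, with Grm4 in addition, under quantile normalization, centred arrays or no minimum fold. All genes called lower went from 494 to 272, 383, 712, 1003 and 508 under these settings. When a Day 0 or Day 7 array was left out, which leaves 1 array on that day, fewer subunits and fewer of all genes were called. For Day 10 against Day 7, the 1 called lower became 0 with median polish, the filter, an offset of 1, an offset of 50 or centred arrays. All genes called lower went from 16 to 33, 38, 0, 0 and 8 under these settings. The call was also lost without either Day 7 array or without Day 10 replicate 1. For Day 10 against Day 0, the 8 called higher became 5 to 7 when an array was left out. The 2 called lower became 1 with median polish, the mean over probesets, quantile normalization or only the arrays of the days compared. All genes called lower went from 718 to 706, 801, 707 and 410 under these settings. With an offset of 1 or 50 the 2 became 0, where 213 and 474 of all genes were called lower. Leaving out any 1 array also left fewer than 2. For probesets, the 89 called higher became 31 with an offset of 1 and 0 to 90 when an array was left out, and the 7 called lower became 1 with an offset of 1, 11 with quantile normalization, 16 with centred arrays and 0 to 8 when an array was left out. The number called for exon use was 0 under every alternative run. The cause of these differences was not tested, except that the filter removes 12 of the 33 subunits from the test. Centring moved the median change of all genes from 0.08 to -0.18 for Day 7 against Day 0 and from -0.15 to 0.06 for Day 10 against Day 7, where the median of the subunits went from 0.58 to 0.32 and from -0.42 to -0.21. Of all genes called on Day 7, 72.1% were higher, against 48.2% with centred arrays and 62.6% with quantile normalization. Deviations of equal replicate numbers correlated at -0.03 (Day 0 and Day 7), 0.04 (Day 7 and Day 10) and 0.34 (Day 0 and Day 10). These values differ between pairs of days and do not decide whether the replicate numbers pair the arrays. A block for the replicate number changed the calls of all genes on Day 7 from 1278 to 1479 higher and from 494 to 605 lower. For Day 10 against Day 7 they went from 31 to 55 higher and from 16 to 101 lower. With the replicate block, 11 subunits were called higher and 2 lower for Day 7 against Day 0, Grik4 in addition, 0 and 1 for Day 10 against Day 7, 8 and 2 for Day 10 against Day 0, and 91 probesets were higher and 7 lower.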
